A study of Mus musculus with 8 samples.

Results

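The genes described here encode potassium channels, that is, all genes whose symbol starts with Kcn: the pore-forming subunits, their accessory subunits, and a few antisense transcripts and regulators that carry the same prefix. Of the 92 such genes with a probe set of their own on the array, 87 were bright enough to be tested (mean over the 8 arrays above 4.30 on the log2 scale, the 30th percentile of all probe sets), of 16026 genes tested in all. The 5 genes below that level were Kcne1, Kcne2, Kcne3, Kcnj1 and Kcnk18. The mean of every tested member lay above 4.30 in each of the 4 groups, so none passed through 1 group alone.

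Potassium channels let potassium ions leave or enter cells and so set the resting potential, shape the action potential and limit firing. Voltage-gated (Kv) channels open on depolarization and are tuned by cytoplasmic beta subunits and by calcium-binding KChIP proteins. Inward rectifiers (Kir) and 2-pore-domain leak channels (K2P) act near rest, in neurons and in the astrocytes that clear potassium from the extracellular space. Calcium-activated (BK, SK, IK) and sodium-activated channels couple the membrane to ion entry during activity.

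The series compared cervical spinal cord RNA of male C57BL/6 mice, 6 weeks old, in 4 groups of 2 arrays each. Control mice received saline by intraperitoneal injection for 4 weeks. All 3 other groups received MPTP, a neurotoxin used to model parkinsonism, at 20 mg/kg every 24 h for 4 weeks. The MPTP group had no needling. The acupoint group was also needled by hand at GB34 (to 3 mm) and LR3 (to 1 mm), and the non-acupoint group at the hips (to 3 mm), in 14 sessions at 48 h intervals, 2 h after MPTP. No saline group was needled, and the labels do not settle if each array carries 1 animal or several pooled. The p-values thus reflect only how far these 2 samples a group lie apart, a spread that may be technical.

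Values are log2 signals made by the authors with RMA from 300 ng of total RNA per array, and a difference of 1 is 2-fold. Differences come from limma fitted over all 16026 genes and all 8 arrays. A gene is called when its p, adjusted by Benjamini-Hochberg over all genes of the comparison, is under 0.05. Array signals depend on the probes, so levels were compared between samples for 1 gene and never between genes. In RNA from whole tissue, fewer cells of a type and less RNA per cell cannot be told apart.

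The labelled tissue was checked with marker genes of its cells. Neuron, astrocyte and oligodendrocyte marker lists had mean levels above 10 on every array. Transcripts of skeletal muscle, which the cord does not contain, were also present: the mean of 15 muscle markers was 7.21 and 8.72 with saline, 6.70 in acupoint replicate 1, and 5.18 to 5.59 in the 5 remaining samples. In MPTP minus control, 12 of those 15 genes were called lower. The neuron list went from 10.44 and 10.40 on the control arrays to between 10.65 and 10.75 on the 6 others, with 9 of 12 genes called higher in MPTP minus control. The motor neuron list went from 7.64 and 7.89 to between 8.18 and 8.35, with 6 of 9 genes called higher. For astrocytes the list mean went from 10.14 and 10.01 to between 10.58 and 10.68, with 10 of 10 genes called higher, and for microglia from 7.29 and 7.27 to between 7.61 and 7.88, with 6 of 10 called higher. Over all genes, 13.7% were called higher and 3.1% lower. Called higher were also 3 of 8 oligodendrocyte, 1 of 5 precursor, 1 of 9 endothelial and mural, 1 of 7 meningeal, 1 of 2 erythroid and 0 of 4 Schwann cell genes. Schwann cell (7.92 and 6.38) and meningeal (8.17 and 6.94) means differed between the 2 control arrays. Every comparison with saline below carries these marker differences, and their part in the channel results was not tested beyond the alternatives given next to those results.

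**Figure D1:**
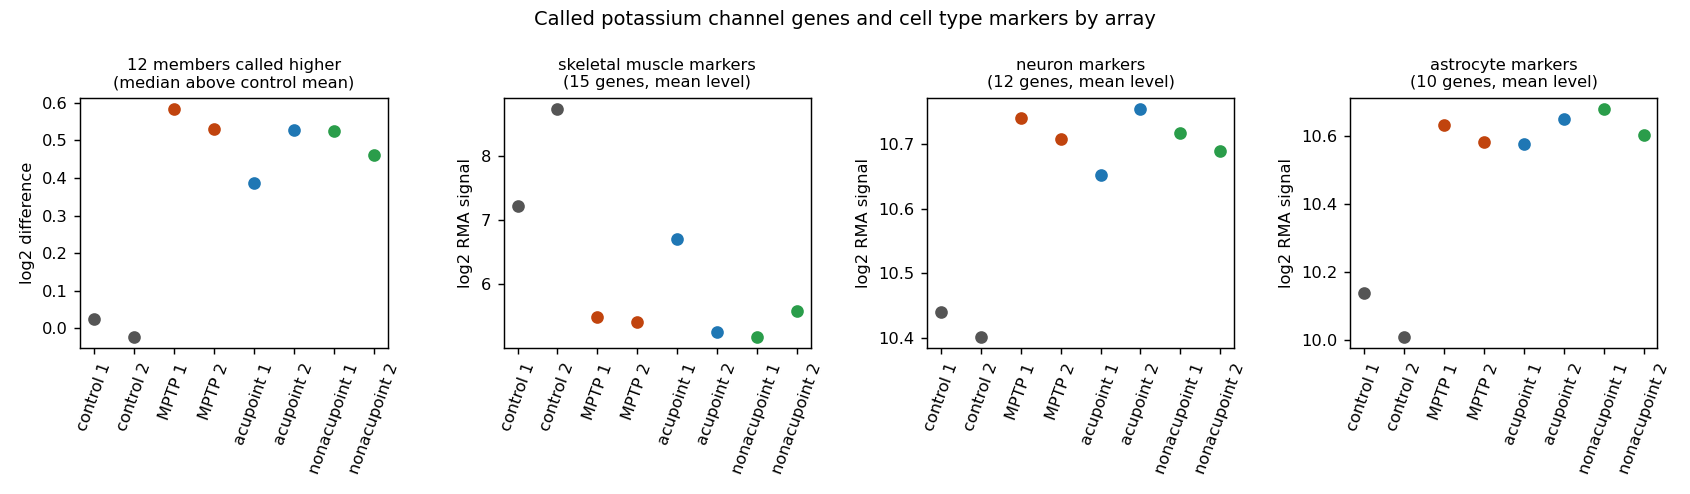
Marker lists and called channel genes on each of the 8 arrays (x axis). The left panel gives the median, over the 12 potassium channel genes called higher on the 6 MPTP arrays, of the log2 signal minus the control mean; the other panels give mean log2 RMA signals of the skeletal muscle, neuron and astrocyte markers. Control arrays are low for the neuron and astrocyte panels and high for muscle, where control replicate 2 reaches 8.72. They are low in the channel panel as well, which follows from the choice of genes called higher than these control arrays.

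MPTP without needling against saline asks which channel genes differ in the cord after the toxin. Of the 87 members, 11 were called higher and 1 lower. Over all genes tested, 13.7% were called higher and 3.1% lower, so the family's shares of 12.6% and 1.15% were no larger than the background, and the results below concern single genes and not the family. With each array centred on its median, 25.1% of all genes were called higher and 1.36% lower, and 17 members higher and 0 lower. The difference was positive for 52 members and negative for 35, and it was smaller than 0.2 in size for 58. The members' median difference was 0.049, beside 0.061 for all genes. No called member differed by 2-fold or more.

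The 6 arrays of MPTP-treated mice against the 2 saline arrays gave 12 members called higher (background 19.9%) and 2 lower (background 5.35%). Both comparisons share the control and MPTP arrays. The 14 genes were the 12 of MPTP minus control with Kcnb2 and Kcna7. An F-test over the 4 groups called 10 members (background 10.8%): Kcnab1, Kcnab2, Kcnd2, Kcnip3, Kcnj2, Kcnj3, Kcnj9, Kcnj16, Kcnk1 and Kcnt1. Arrays did not overlap between MPTP and control for 31 members that were higher (background 41.9%) and 17 that were lower (background 22.1%).

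**Figure D2:**
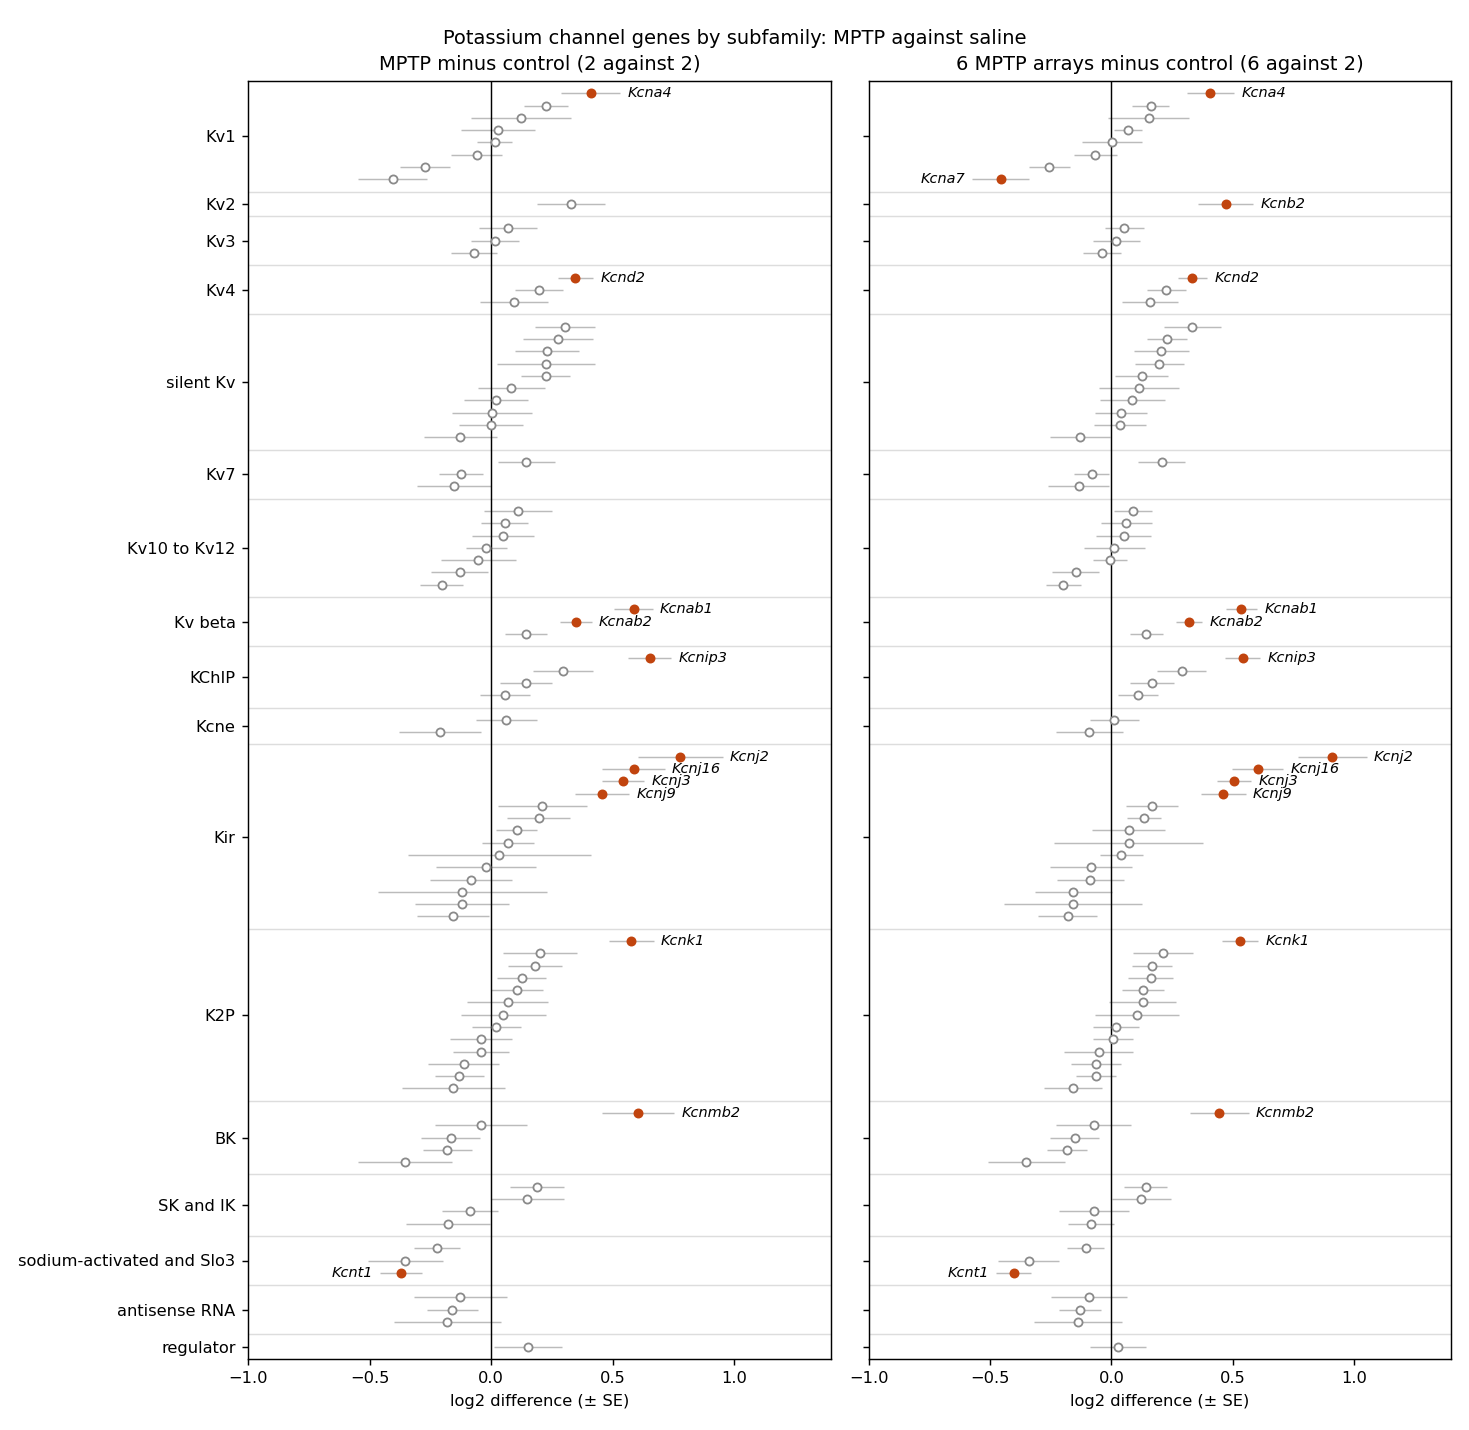
Log2 difference of each of the 87 potassium channel genes, 1 point per gene with its standard error, grouped by subfamily (y axis), for MPTP minus control (left) and the 6 MPTP-treated arrays minus control (right). Filled, named points are called by limma at an adjusted p under 0.05. To the right of 0 as called genes lie 4 of the 14 Kir genes and 2 of the 3 Kv beta genes. Over all genes 13.7% (left) and 19.9% (right) were called higher. Most points lie within 0.2 of 0.

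Among inward rectifiers, 4 of 14 genes were called higher in MPTP minus control and none lower: Kcnj2, Kcnj16, Kcnj3 and Kcnj9. Over all genes 13.7% were called higher and 3.1% lower. Counts by subfamily here and below say which genes were called, and no subfamily was tested as a set. These 4 promoters are shown because they are the Kir genes that moved. Each window runs from 250 bases before to 50 bases after a RefSeq start (build GRCm38.p6), 5′ to 3′ on the gene's strand, with matches to the GC box GGGCGG, the box named by its letters CCAAT, or TATAAA, the core of the TATA box, on either strand, in capitals. The windows are chr11:111065914-111066213 (plus strand) for Kcnj2, chr11:111023610-111023909 (plus strand) for Kcnj16, chr2:55435720-55436019 (plus strand) for Kcnj3 and chr1:172329273-172329572 (minus strand) for Kcnj9. Kcnj16 has 4 windows, of which the one nearest Kcnj2 is shown.
Kcnj2: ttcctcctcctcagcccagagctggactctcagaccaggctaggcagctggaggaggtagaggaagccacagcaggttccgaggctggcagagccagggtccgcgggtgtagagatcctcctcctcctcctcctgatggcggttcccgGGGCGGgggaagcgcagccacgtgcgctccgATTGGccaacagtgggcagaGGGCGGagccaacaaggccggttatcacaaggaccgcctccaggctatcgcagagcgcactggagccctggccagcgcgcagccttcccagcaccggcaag
Kcnj16: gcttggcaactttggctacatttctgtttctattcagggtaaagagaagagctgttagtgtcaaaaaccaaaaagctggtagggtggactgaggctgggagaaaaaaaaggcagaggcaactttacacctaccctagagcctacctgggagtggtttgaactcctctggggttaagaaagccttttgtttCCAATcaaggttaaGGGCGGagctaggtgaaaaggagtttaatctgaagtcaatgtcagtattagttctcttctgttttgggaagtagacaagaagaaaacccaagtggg
Kcnj3: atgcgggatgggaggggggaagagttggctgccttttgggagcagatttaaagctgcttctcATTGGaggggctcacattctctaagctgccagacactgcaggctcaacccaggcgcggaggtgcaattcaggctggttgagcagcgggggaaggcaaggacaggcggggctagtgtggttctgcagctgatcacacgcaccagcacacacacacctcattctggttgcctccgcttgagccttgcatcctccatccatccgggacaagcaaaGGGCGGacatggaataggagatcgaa
Kcnj9: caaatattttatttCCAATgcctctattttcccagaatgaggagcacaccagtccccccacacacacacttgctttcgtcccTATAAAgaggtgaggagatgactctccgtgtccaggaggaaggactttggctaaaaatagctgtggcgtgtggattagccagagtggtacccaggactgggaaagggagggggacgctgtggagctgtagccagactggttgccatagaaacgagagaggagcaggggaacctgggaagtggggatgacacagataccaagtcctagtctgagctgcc

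In these windows Kcnj2, Kcnj16 and Kcnj3 held both a GC box and a CCAAT box, and Kcnj9 held a CCAAT box and a TATA box. No 2 matches overlapped. None of the Kcnj16 windows not shown held a GC box or a CCAAT box. Over 32851 mouse promoter windows, 35.7% held a GC box, 37.4% a CCAAT box and 13.6% a TATA box. The 89 windows of 66 member genes held them in 48.3%, 31.5% and 5.62%. Of the 20 windows of the 11 genes called higher, 9 (45%) held a GC box, 7 (35%) a CCAAT box and 3 (15%) a TATA box. The full cyclic AMP response element TGACGTCA was in 1.79% of all windows and in 0 member windows. The members' windows were richer in G and C, with a median of 59.7% against 52.7% for all windows. A match is a run of letters, not a measured binding site.

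Kcnj2 encodes Kir2.1, a strong inward rectifier that holds the resting potential of neurons, muscle and endothelium. Its log2 signal was 5.38 and 4.90 in saline mice, 6.04 and 5.79 after MPTP alone, 5.99 and 6.19 with acupoint needling and 6.12 and 6.15 with hip needling. Both control arrays lay below all 6 others, and control replicate 2 was the lowest. The difference in MPTP minus control was 0.78 (SE 0.17, adjusted p = 0.0173), 1.72-fold, and over the 6 MPTP-treated arrays it was 0.91 (SE 0.14, adjusted p = 0.00250). These were the largest differences among the called members.

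Kcnj16 encodes Kir5.1, which carries little current alone and pairs with Kir4.1 in glia. It measured 7.89 and 7.60 in saline mice, 8.33 and 8.33 after MPTP alone, 8.15 and 8.47 with acupoint needling and 8.44 and 8.36 with hip needling, again with no overlap between saline and the rest. MPTP minus control gave 0.59 (SE 0.13, adjusted p = 0.0161). Kir4.1 itself, from Kcnj10, is the main potassium-buffering channel of astrocytes, and it measured 10.00 and 10.22 in saline mice, 10.22 and 10.20 after MPTP alone, 10.35 and 10.25 with acupoint needling and 10.21 and 10.22 with hip needling. The control and MPTP arrays overlapped for Kcnj10 through control replicate 2, at 10.22, while control replicate 1, at 10.00, lay below the 6 others. Its difference of 0.10 (95% interval -0.087 to 0.30, adjusted p = 0.453) did not pass the test. Over the 6 arrays Kcnj10 was called higher with arrays centred on their medians, as were 33.8% of all genes. It was also called without control replicate 2 and acupoint replicate 1, so its result depends on which control array is used. Kcnj16 and Kcnj2 are neighbours among the protein-coding genes of RefSeq on chromosome 11, and Kcnj9 and Kcnj10 on chromosome 1. Of 9 such pairs of neighbouring channel genes with both measured, Kcnj16 with Kcnj2 was the 1 pair with both genes called, and Kcnj9 with Kcnj10 the 1 pair with a single gene called.

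Kcnj3 and Kcnj9 encode GIRK1 and GIRK3, subunits of the G protein-gated channels through which opioid, GABA-B and other inhibitory receptors dampen firing. Kcnj3 measured 7.74 and 7.82 in saline mice, 8.35 and 8.29 after MPTP alone, 8.17 and 8.29 with acupoint needling and 8.33 and 8.27 with hip needling. For Kcnj9 the levels were 6.47 and 6.47 in saline mice, 6.86 and 7.0 after MPTP alone, 6.85 and 7.05 with acupoint needling and 6.90 and 6.94 with hip needling. In both genes the saline arrays agreed closely and sat below the 6 others. The differences in MPTP minus control were 0.54 (SE 0.087, adjusted p = 0.00593) for Kcnj3 and 0.46 (SE 0.11, adjusted p = 0.0244) for Kcnj9. The other GIRK genes, Kcnj6 (GIRK2) and Kcnj5 (GIRK4), had differences of 0.20 (adjusted p = 0.352) and 0.21 (adjusted p = 0.483). Among the 10 Kir genes not called, differences ran from -0.16 for Kcnj8 to 0.21 for Kcnj5. Replicates of Kcnj13 and Kcnj14 spread widely: Kcnj13 was 4.64 and 5.84 on the MPTP arrays, and Kcnj14 was 5.57 and 6.43 on the control arrays.

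**Figure D3:**
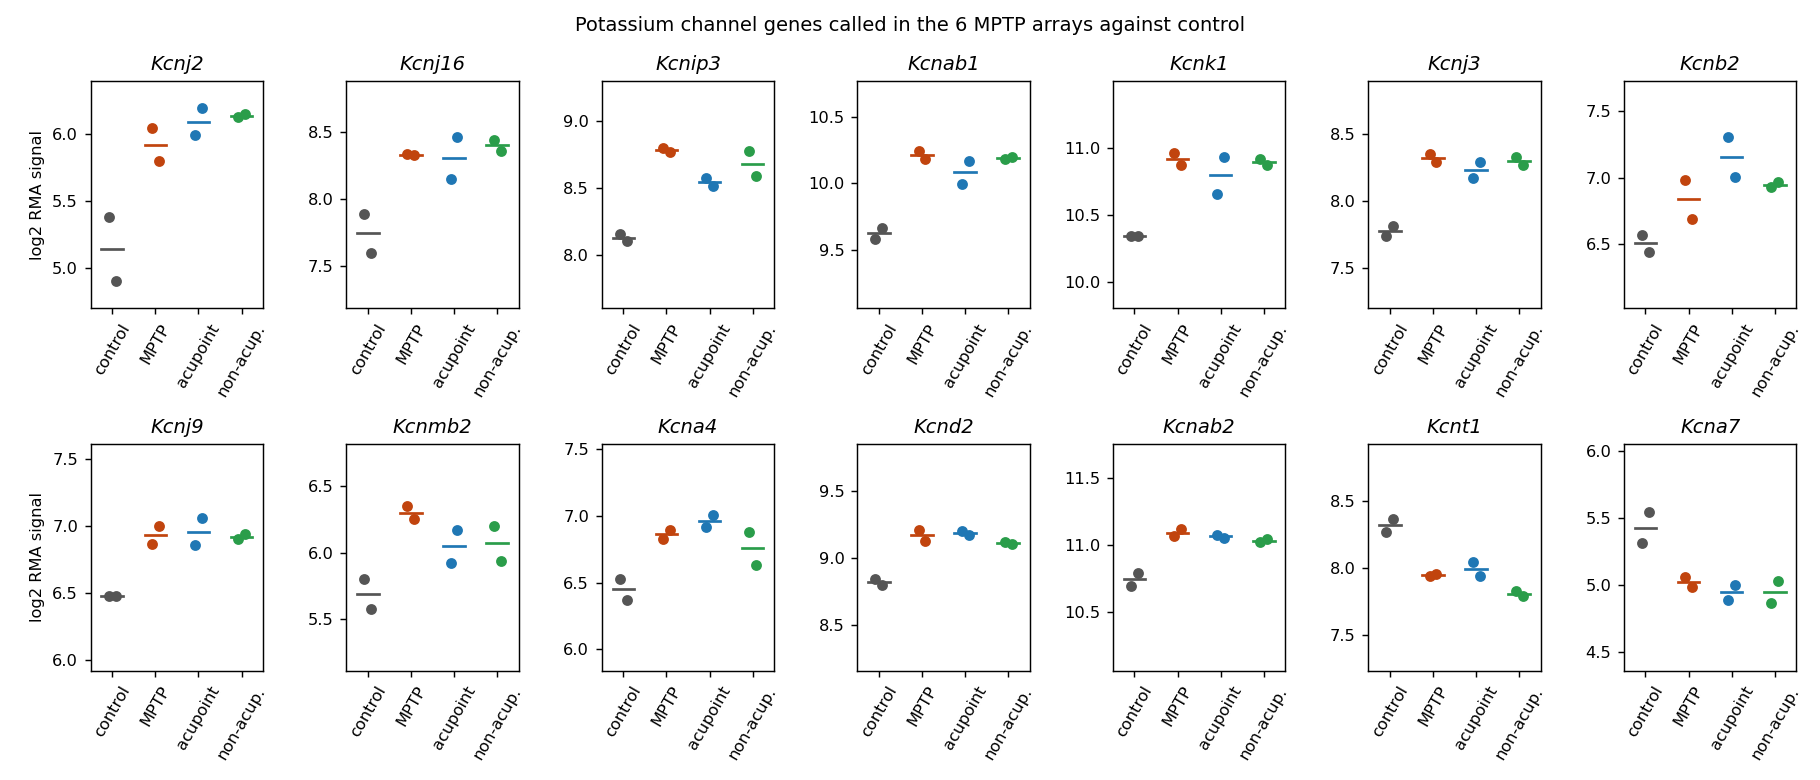
Log2 RMA signal (y axis, 1 panel per gene, with y ranges that differ in position) of the 14 potassium channel genes called in the 6 MPTP-treated arrays minus control, with 1 point per array and a line at each group mean. The control arrays lie below all others in 12 panels and above all others for Kcnt1 and Kcna7.

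Of 13 K2P leak channel genes, 1 was called. Kcnk1 encodes TWIK-1, a weak background channel also found in astrocytes. Its signal was 10.34 and 10.34 in saline mice, 10.96 and 10.87 after MPTP alone, 10.65 and 10.94 with acupoint needling and 10.92 and 10.87 with hip needling. The saline arrays were nearly identical and the 6 others did not overlap them, with acupoint replicate 1 the lowest of the 6. MPTP minus control gave 0.58 (SE 0.092, adjusted p = 0.00581). The other 12 K2P genes had differences between -0.16 (Kcnk5, or TASK-2) and 0.20 (Kcnk4, or TRAAK), with adjusted p of 0.317 or more.

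Of the 3 Kv beta genes, whose cytoplasmic products bind Kv1 channels and change their inactivation and trafficking, Kcnab1 and Kcnab2 were called higher. Kcnab1 measured 9.59 and 9.67 in saline mice, 10.24 and 10.19 after MPTP alone, 10.00 and 10.17 with acupoint needling and 10.19 and 10.20 with hip needling, and Kcnab2 10.69 and 10.79 in saline mice, 11.07 and 11.12 after MPTP alone, 11.07 and 11.05 with acupoint needling and 11.02 and 11.04 with hip needling. Neither gene's saline arrays overlapped the rest. The differences in MPTP minus control were 0.59 (SE 0.079, adjusted p = 0.00362) for Kcnab1 and 0.35 (SE 0.065, adjusted p = 0.00877) for Kcnab2. The third, Kcnab3, was 8.88 and 8.88 with saline and 8.94 to 9.11 on the 6 others, also without overlap, but its difference of 0.14 (adjusted p = 0.288) did not pass.

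Among the Kv1 pores that these subunits join, 1 of 8 was called. Kcna4 encodes Kv1.4, a rapidly inactivating channel of axons and terminals. It measured 6.53 and 6.37 in saline mice, 6.83 and 6.89 after MPTP alone, 6.92 and 7.0 with acupoint needling and 6.88 and 6.63 with hip needling, and MPTP minus control gave 0.41 (SE 0.12, adjusted p = 0.0467), close to the threshold. Kcna1 and Kcna6 differed by 0.015 (adjusted p = 0.917) and 0.23 (adjusted p = 0.126). Kcna7, a Kv1 gene known from skeletal and heart muscle, measured 5.31 and 5.55 in saline mice, 5.06 and 4.99 after MPTP alone, 4.89 and 5.0 with acupoint needling and 4.87 and 5.03 with hip needling. Its saline arrays were above all others. The difference of -0.41 (adjusted p = 0.0842) in MPTP minus control did not pass, and that of -0.46 (SE 0.12, adjusted p = 0.0199) over the 6 MPTP-treated arrays did.

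Kcna7 and the muscle markers were both highest on the control arrays. On acupoint replicate 1, with a muscle marker mean of 6.70, Kcna7 was at 4.89, among its lowest values. Saline and a high muscle signal went together, so their parts in the difference of Kcna7 cannot be told apart. With the mean muscle marker level as a covariate its difference over the 6 arrays was -0.32 (adjusted p = 0.694), and with control replicate 2 and acupoint replicate 1 left out it was -0.32 (adjusted p = 0.109), so the call was lost in both.

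Kcna2 (Kv1.2, found with Kv1.1 beside the nodes of Ranvier in myelinated axons) had 2 probe sets that went opposite ways. The brighter one, used here by rule, was 10.14 and 10.34 with saline and 9.96, 9.97, 10.18, 9.90, 9.92 and 9.98 on the 6 others, a difference of -0.27 in MPTP minus control (adjusted p = 0.101). The other was 9.52 and 9.21 with saline and 9.84, 9.82, 9.88, 9.91, 9.78 and 9.90 on the 6 others. Fitted as a row of its own among 17581 probe sets, it rose by 0.47 (SE 0.10, adjusted p = 0.0158). The direction of Kcna2 is therefore not settled by these arrays. Kcnh8 also had 2 probe sets, with differences of 0.048 and 0.27 and no call for either.

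Kv4 channels carry the A-type current that delays firing in dendrites, and KChIP proteins are their calcium-binding partners. Kcnd2 (Kv4.2) was the 1 Kv4 gene of 3 called. It measured 8.84 and 8.80 in saline mice, 9.21 and 9.13 after MPTP alone, 9.20 and 9.17 with acupoint needling and 9.12 and 9.11 with hip needling, with a difference of 0.35 (SE 0.073, adjusted p = 0.0140). Kcnd1 and Kcnd3 differed by 0.20 (adjusted p = 0.211) and 0.094 (adjusted p = 0.709). Kcnip3, whose product is both a Kv4 subunit and, under the name DREAM, a calcium-regulated repressor of transcription, was the 1 KChIP gene of 4 called. Its signal was 8.16 and 8.10 in saline mice, 8.80 and 8.77 after MPTP alone, 8.58 and 8.52 with acupoint needling and 8.78 and 8.59 with hip needling. The 2 control arrays lay well below the 6 others, and within those 6 the acupoint arrays were the lowest. MPTP minus control gave 0.65 (SE 0.088, adjusted p = 0.00362), 1.57-fold. All 4 KChIP differences were positive, and the next largest was that of Kcnip1 at 0.30 (adjusted p = 0.133).

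Kcnb2 encodes the delayed rectifier Kv2.2. It was 6.57 and 6.44 in saline mice, 6.98 and 6.69 after MPTP alone, 7.30 and 7.0 with acupoint needling and 6.93 and 6.97 with hip needling. All 6 MPTP-treated arrays lay above both saline arrays. The MPTP arrays alone differed by 0.33 (adjusted p = 0.140) and did not pass, and the 6 arrays by 0.47 (SE 0.11, adjusted p = 0.0157) and did. The 10 silent Kv genes, whose products form channels only with Kv2 subunits, gave no call, with differences from -0.13 (Kcng2) to 0.31 (Kcng4), 8 of them positive. Kcnv1 (Kv8.1) had the smallest F-test p of these genes and measured 5.46 and 5.23 with saline and 5.56 to 5.90 on the 6 others, a difference of 0.27 (adjusted p = 0.230) in MPTP minus control.

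No Kv3, Kv7 or Kv10 to Kv12 gene was called. The 3 Kv3 genes, which let neurons fire fast, had differences between -0.072 and 0.070. Kcnc2 among them differed by 0.016, with a sign that changed with the scaling of the arrays. Of the Kv7 genes, which carry the M-current, Kcnq5 differed by 0.15 (adjusted p = 0.454), and Kcnq3 and Kcnq1 by -0.13 and -0.15. Kcnh1 (Kv10.1) was 7.67 and 7.62 with saline and 7.41 to 7.49 on the 6 others, so the groups did not overlap. Its differences of -0.20 (adjusted p = 0.151) in MPTP minus control and -0.20 (adjusted p = 0.0741) over the 6 arrays nevertheless missed the threshold. Kcnh7 also did not overlap over the 6 arrays, at -0.15 (adjusted p = 0.310), and its sign turned with median centring of each array. The other 5 genes of that subfamily had differences between -0.053 and 0.11 in MPTP minus control.

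BK channels combine a voltage- and calcium-gated pore (Kcnma1) with beta subunits. Kcnmb2, whose product makes BK current inactivate, was called higher. It measured 5.81 and 5.58 in saline mice, 6.35 and 6.25 after MPTP alone, 5.92 and 6.17 with acupoint needling and 6.20 and 5.94 with hip needling. The saline arrays were the lowest, and acupoint replicate 1 and non-acupoint replicate 2 were the next. The difference was 0.61 (SE 0.15, adjusted p = 0.0243) in MPTP minus control and 0.44 (SE 0.12, adjusted p = 0.0258) over the 6 arrays. The other 4 BK genes had negative differences without a call: -0.18 (adjusted p = 0.258) for Kcnma1, -0.35 (adjusted p = 0.252) for Kcnmb3, -0.17 for Kcnmb4 and -0.042 for Kcnmb1. The 4 SK and IK genes ranged from -0.18 (Kcnn4) to 0.19 (Kcnn3, adjusted p = 0.280).

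Kcnt1 was the 1 member called lower in MPTP minus control. It encodes Slack, a sodium-activated channel that follows bursts of firing with a slow hyperpolarization. Its signal was 8.27 and 8.37 in saline mice, 7.94 and 7.95 after MPTP alone, 8.04 and 7.94 with acupoint needling and 7.82 and 7.79 with hip needling, so the saline arrays were above all others. MPTP minus control gave -0.37 (SE 0.086, adjusted p = 0.0202), and the 6 arrays -0.40 (SE 0.071, adjusted p = 0.00394). With the arrays centred on their medians the first value was -0.21 (adjusted p = 0.173) and the call was lost. The related Kcnt2 (Slick) differed by -0.22 (adjusted p = 0.145) and Kcnu1 (Slo3, known from sperm) by -0.35 (adjusted p = 0.149) in MPTP minus control, both without overlap and without a call. Kcnu1 over the 6 arrays was at -0.34 (adjusted p = 0.0768).

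The remaining members gave no call. The accessory subunit gene Kcne4 differed by -0.21 (adjusted p = 0.441) and Kcne1l by 0.063. The 3 antisense transcripts were at -0.16 (adjusted p = 0.342) for Kcnd3os, -0.18 for Kcnmb4os1 and -0.13 for Kcnmb4os2. Kcnrg, whose product suppresses Kv channel assembly, was at 0.15 (adjusted p = 0.513).

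**Figure D4:**
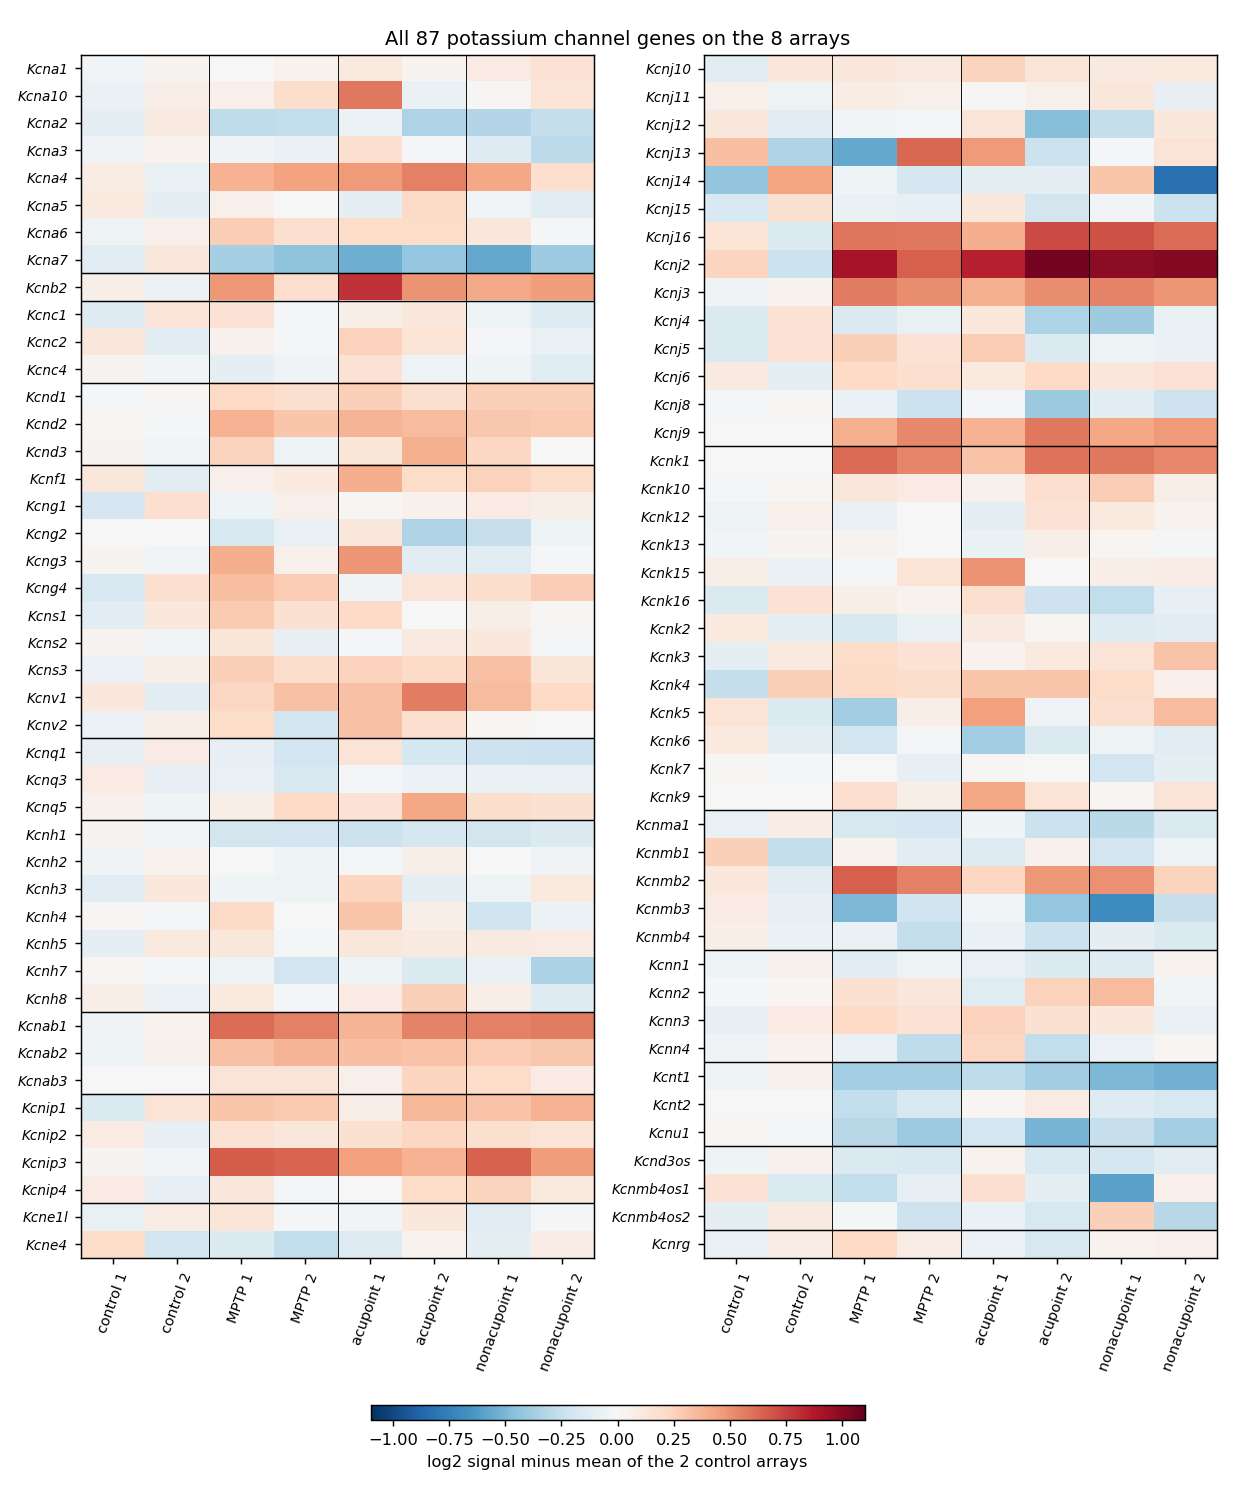
Log2 RMA signal of each of the 87 potassium channel genes (rows, grouped by subfamily) on the 8 arrays (columns), minus the mean of the 2 control arrays; red is higher and blue lower than that mean, on the scale given below the panels. The called Kir, Kv beta, Kcnip3 and Kcnk1 rows are red on all 6 MPTP-treated arrays, Kcnt1 and Kcna7 are blue on all 6, and most other rows are pale.

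The calls were recomputed with the muscle transcripts in view. The first fit below keeps control replicate 1, whose muscle marker mean was 7.21. That lay above the 5.18 to 5.59 of the MPTP-treated arrays kept with it, so the muscle difference remained in that fit. Without control replicate 2 and acupoint replicate 1, which leaves 1 control array that is taken to vary like the other groups, 14 members were called higher and 1 lower in MPTP minus control, beside 19.7% and 5.69% of all genes. Kcnj2 was then at 0.54 (adjusted p = 0.0281), Kcnj16 at 0.44 (adjusted p = 0.00536) and Kcnip3 at 0.63 (adjusted p = 0.00263), and of the 12 calls Kcna4 was the 1 lost, at 0.33 (adjusted p = 0.0947). Kcng4, Kcnip1, Kcnj10 and Kcnk4 were called in that fit and not in the main one. For each of these genes control replicate 1, the one kept, was the lower of the control arrays. With the mean of the muscle markers as a covariate, 0 of the 16026 genes were called higher and 3 lower, and no member was called. Differences of Kcnj16 and Kcnmb2 then shrank to 0.065 (adjusted p = 0.921) and 0.16 (adjusted p = 0.878), and that of Kcnj2 to 0.23 (adjusted p = 0.842). Those of Kcnip3, Kcnab1 and Kcnd2 were 0.62 (adjusted p = 0.319), 0.52 (adjusted p = 0.330) and 0.34 (adjusted p = 0.466). Muscle level and treatment largely went together, so the fit with this covariate cannot separate them. Neither its lost calls nor its smaller differences tell whether a channel gene followed muscle content or treatment.

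Calls became fewer, over all genes as well as among the members, when MPTP replicate 1, MPTP replicate 2 or control replicate 2 was left out. Without MPTP replicate 1 none of the 11 higher calls of MPTP minus control passed, and 0.275% of all genes were called higher. The differences themselves moved less: Kcnip3 was at 0.64, Kcnab1 at 0.56, Kcnk1 at 0.53, Kcnj16 at 0.58 and Kcnj2 at 0.66. Without MPTP replicate 2, Kcnip3 and Kcnab1 passed, beside 0.93% of all genes. Without control replicate 2, Kcnip3, Kcnab1, Kcnk1, Kcnj3 and Kcnab2 passed, beside 3.48% of all genes, and Kcnj2 was at 0.54. The call of Kcnt1 was lost in each of these 3 cases, with differences of -0.37, -0.38 and -0.32. No sign of the 12 called differences turned under any of the 20 alternatives. Some of these cannot change a difference in MPTP minus control, such as another variance model, the replicate block or leaving out a needled array. Those bear only on whether a gene is called. Over the 6 MPTP-treated arrays, Kcnj2, Kcnip3, Kcnab1, Kcnk1, Kcnj3 and Kcnd2 passed in 19 of 20 alternatives, all but the muscle covariate.

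Proteins that work with potassium channels were counted from lists. Of 23 measured channel partners and anchors, 4 were called higher in MPTP minus control and none lower, beside 13.7% of all genes called higher, a share near that of the list. They were Pex5l, a trafficking partner of hyperpolarization-activated channels, at 0.40 (adjusted p = 0.0394), the Kv4 partners Dpp10 at 0.30 (adjusted p = 0.0358) and Dpp6 at 0.25 (adjusted p = 0.0414), and Dlg4, the postsynaptic scaffold PSD-95, at 0.28 (adjusted p = 0.0249). Each of the 4 calls was lost in 10 to 12 of the 20 alternatives. Over the 6 arrays 8 were called higher (background 19.9%), with Sptbn4, a spectrin of axon initial segments, at 0.31 (adjusted p = 0.0369). Of 12 potassium pump and cotransporter genes, 2 were called higher, again near the 13.7% of all genes. Slc12a5, the neuronal potassium-chloride cotransporter KCC2, differed by 0.56 (SE 0.085, adjusted p = 0.00498). Its call held in 17 of 20 alternatives, and was lost without either MPTP array and with the muscle covariate. Over the 6 arrays the Slc12a5 call held in 20 of 20. Atp1b3, a sodium-potassium pump subunit, differed by 0.38 (adjusted p = 0.0381), with a sign that turned under the muscle covariate. Over the 6 arrays 4 were called (background 19.9%), with Slc12a2 at 0.26 (adjusted p = 0.0239) and Atp1b1 at 0.25 (adjusted p = 0.0135). None of the 3 measured hyperpolarization-activated channel genes was called.

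The needled groups were also set against saline. These comparisons share the control arrays with MPTP minus control, so their values are given side by side and their calls are not counted. For Kcnj2 the 3 groups were at 0.78, 0.95 and 1.00 above saline (MPTP, acupoint, non-acupoint), for Kcnip3 at 0.65, 0.42 and 0.55, for Kcnmb2 at 0.61, 0.35 and 0.37, and for Kcnt1 at -0.37, -0.33 and -0.51. Within the 6 arrays, acupoint replicate 1 was the lowest for 6 of the 12 members called higher. Its median above the control mean was 0.386 over those 12, against 0.462 to 0.583 on the other 5, and it was also the array with the highest muscle marker mean of the 6, 6.70.

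Needling of MPTP-treated mice was then compared with MPTP alone. No member and no gene of the 16026 was called by limma for needling at the acupoints (background 0%). At an unadjusted p under 0.05 there were 3 members, beside 1.25% of all genes: Kcnt2, Kcnip3 and Kcnb2. Kcnt2 was 6.95 and 7.05 on the MPTP arrays and 7.25 and 7.31 on the acupoint arrays, a difference of 0.28 (unadjusted p = 0.0156, adjusted p = 1.00); the control arrays were at 7.22 and 7.22. Kcnip3 was lower on both acupoint arrays than on both MPTP arrays, by -0.24 (unadjusted p = 0.0240, adjusted p = 1.00), with a 95% interval of -0.43 to -0.039. Kcnb2 was higher by 0.31 (unadjusted p = 0.0494, adjusted p = 1.00). The next members without overlap were Kcnf1 at 0.22 and Kcnk2, the stretch-sensitive leak channel TREK-1, at 0.19, and on the lower side Kcnrg at -0.27, Kcnmb2 at -0.25 and Kcng4 at -0.25. None of these passed. For Kcnj2 the difference was 0.17, with a 95% interval of -0.22 to 0.56.

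At the hips no gene was called either (background 0%), and 0 members had an unadjusted p under 0.05, beside 1.7% of all genes. The largest differences without overlap were those of Kcnk5 at 0.42, Kcnj2 at 0.22, Kcne4 at 0.21 and Kcnn4 at 0.16 on the higher side, and of Kcng3 at -0.29, Kcnj5 at -0.27, Kcnh4 at -0.25 and Kcnk16 at -0.23 on the lower side. All had an adjusted p of 1.00. Both needling comparisons share the MPTP arrays.

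The acupoint and non-acupoint groups were compared with each other, which asks whether the site of needling matters. No gene was called (background 0%), and the smallest adjusted p of a member was 0.936. The difference was positive for 56 members and negative for 31, with a median of 0.044 beside -0.00083 for all genes. At an unadjusted p under 0.05 there were 3 members, beside 3.77% of all genes. Kcnh4 was 6.01 and 5.77 at the acupoints and 5.49 and 5.64 at the hips, a difference of 0.33 (unadjusted p = 0.0429, adjusted p = 0.936). Kcna3, the Kv1.3 channel of microglia and lymphocytes, was 7.59 and 7.39 and 7.27 and 7.13, a difference of 0.29 (unadjusted p = 0.0223, adjusted p = 0.936). Kcnc2, the Kv3.2 channel of fast-spiking interneurons, was 8.62 and 8.51 and 8.34 and 8.29, a difference of 0.25 (unadjusted p = 0.0314, adjusted p = 0.936). Kcnv2 was higher by 0.24, and Kcnk6, Kcng4, Kcnrg and Kcnk3 had differences of -0.19, -0.17, -0.17 and -0.15, without overlap and without a call. In simulated data of the same size, 26.2% of changes of 0.5 and 79% of changes of 1 were recovered in this comparison, so changes of the size seen here were mostly not detectable with 2 arrays a group.

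**Figure D5:**
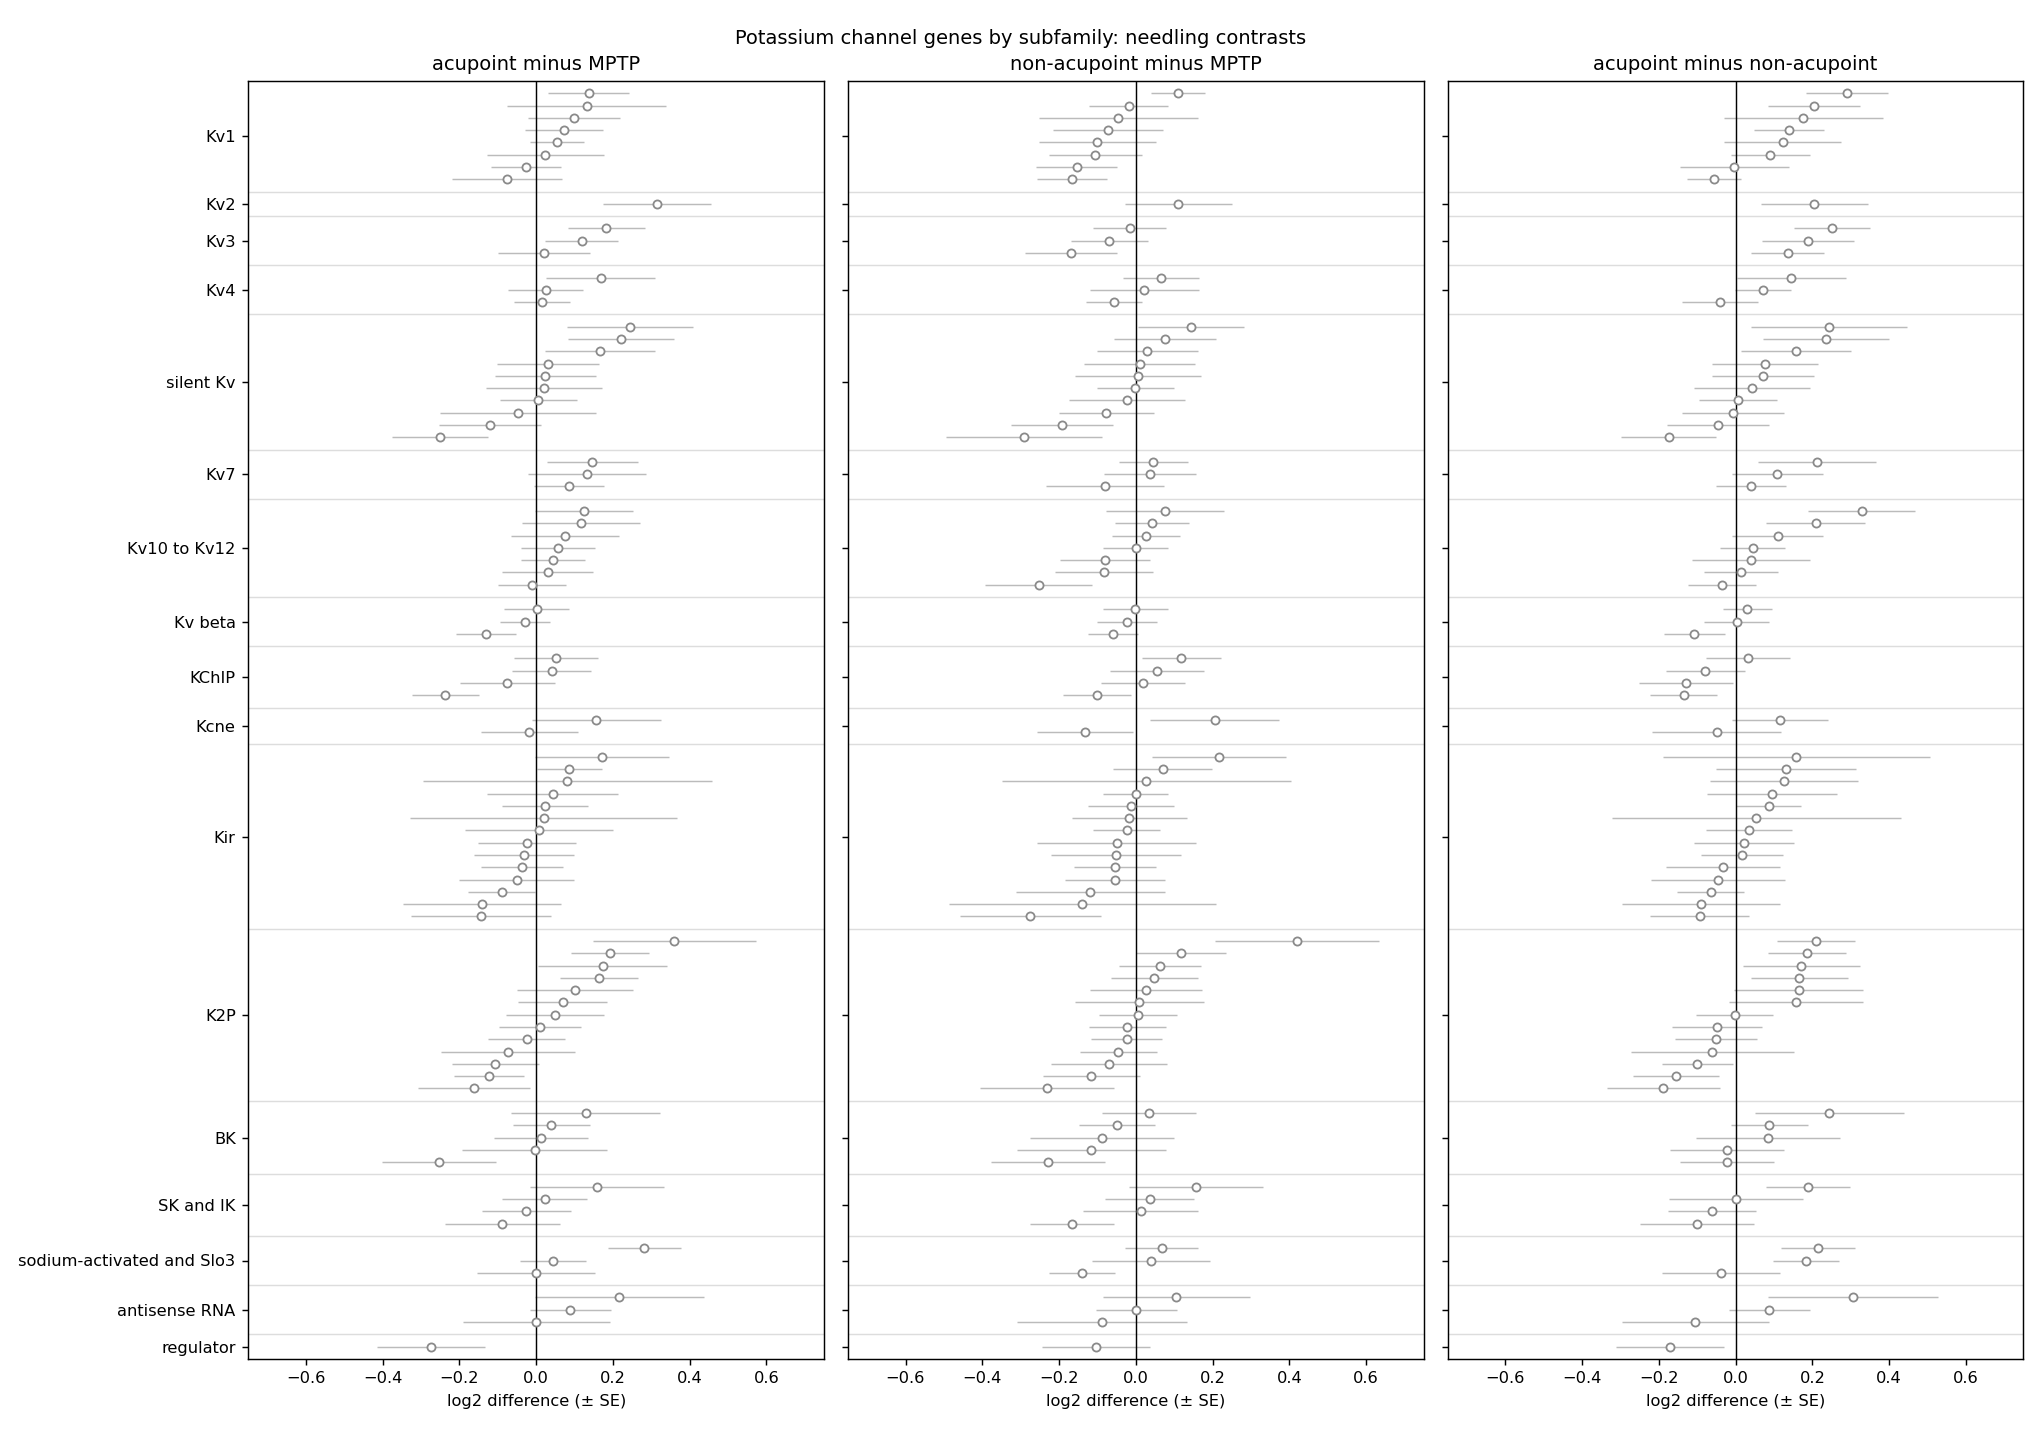
Log2 difference with its standard error for each of the 87 potassium channel genes by subfamily (y axis) in the 3 needling comparisons: acupoint minus MPTP, non-acupoint minus MPTP and acupoint minus non-acupoint. All points are open because no gene was called, and all 3 Kv3 genes lie right of 0 in the last panel.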

How the data were processed

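The 8 arrays were processed by the authors with Affymetrix Expression Console and RMA, per the submitters' processing notes, versions and genome build not given in the sources used here. Each deposited value is a log2 signal, 1 for every probe set on every array, with the base read from the range of the values. RMA corrects background and equalizes probe distributions between arrays, which can hide shifts common to most genes. Scan dates were not used, so no batch was tested.

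Probe sets with 1 symbol in the platform annotation (21789; 1621 had several and 12147 none) and a mean above the 30th percentile were kept, taking the one with the highest mean for each gene. All 87 members matched the RefSeq table by symbol. Promoter windows are RefSeq's, build GRCm38.p6. limma 3.58.1 in R 4.3.3 was fitted with 1 mean per group and eBayes with an intensity trend (4 residual and 5.34 prior degrees of freedom). Tests are two-sided, and an exact permutation of 2 against 2 arrays cannot go below p = 0.333. The members and lists were chosen with earlier results of these data known, so nothing here is independent support for them. Named genes were all called members, filled to 8 per direction with the largest differences without overlap, 4 per direction in each needling comparison, and the member of each subfamily with the smallest F-test p. The fit was tested on simulated data over 16026 genes: in MPTP minus control 19.1% of changes of 0.5, 75.8% of changes of 1 and 98.5% of changes of 2 were recovered, with 4 false among 132 calls. Far more genes, 2199, were called higher in the data than in that simulation, so these rates need not hold there. Alternatives changed the scaling, the filter, the variance model, the arrays in the fit, the probe set rule, the replicate block and the muscle markers. Figures were drawn with Python 3.11.15 and matplotlib 3.10.9.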

Additional observations from a re-analysis of the deposited data

Results flagged for a closer look

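Kcna3 and Kcnc2 had arrays on opposite sides of the MPTP arrays at the needling sites: both acupoint arrays lay above both MPTP arrays, and both non-acupoint arrays lay below them. For Kcna3 the log2 difference from MPTP was 0.14 at the acupoints and -0.15 at the hips. For Kcnc2 it was 0.18 and -0.069 (SE 0.10). The direct test between the sites gave 0.29 for Kcna3 and 0.25 for Kcnc2, and neither passed limma's adjusted p (0.936 for both). These were 2 of the 87 members (2.3%), beside 2.58% of all 16026 genes with arrays on opposite sides in either order. The order seen here, above MPTP at the acupoints and below at the hips, held for 1.51% of all genes. The members' share was near the background for either order, and with 2 genes its distance from 1.51% was not tested. The comparisons share the MPTP arrays.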

How the results depend on the processing

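Each result was recomputed under 20 alternatives, or 19 for Kcna7, which the stricter filter removed. Members called higher in MPTP minus control (11) became 17 with arrays centred on their medians, 0 with the muscle covariate and 0 to 11 when single arrays were left out (0 without MPTP replicate 1, 2 without MPTP replicate 2, 5 without control replicate 2). Those called lower (1) became 2 with cyclic loess or only the groups compared, 0 with centring or the muscle covariate, and 0 to 2 without single arrays. Over the 6 arrays, the count called higher (12) became 27 with centring, 0 with the muscle covariate and 8 to 16 without single arrays. The count called lower (2) became 4 with quantile normalization or cyclic loess, 1 with centring, 0 with the muscle covariate and 0 to 5 without single arrays. Centring moved the median of all genes by 0.158 in MPTP minus control and by 0.152 over the 6 arrays.

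The members' median in MPTP minus control (0.049) was 0.093 with quantile normalization, 0.21 with centring, 0.14 with the muscle covariate and 0.0011 to 0.063 without single arrays. Over the 6 arrays (0.054) it was 0.11 with quantile normalization, 0.21 with centring, 0.11 with a filter at the 50th percentile and 0.12 with the muscle covariate. In acupoint minus non-acupoint (0.044) it was 0.014 with centring, 0.031 with the muscle covariate and 0.039 to 0.086 without single arrays, the highest without acupoint replicate 2. No member was called in any needling comparison under any alternative, though 622 of all genes were called in acupoint minus non-acupoint without acupoint replicate 2.

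Signs turned for Kcna2 (0.096 with probe sets averaged, 0.13 with the muscle covariate, 0.47 for its other probe set, an alternative chosen after seeing the data), Kcnh7 over the 6 arrays (0.0053 with centring), and Kcnc2 (-0.078 with quantile normalization, -0.11 with cyclic loess, -0.12 with the muscle covariate, -0.11 without control replicate 2 or without it and acupoint replicate 1, -0.014 without MPTP replicate 1). The muscle covariate also turned Kcnma1 (0.15), Kcnd3os (0.10), Kcnv1 (-0.14), Kcnq5 (-0.16) and Atp1b3 (-0.018, and -0.012 over the 6 arrays). The cause was not tested. Kcna4 lost its MPTP minus control call in 12 of 20 alternatives, Kcnd2 in 5 and Kcnab2 in 4 (both with cyclic loess, with the muscle covariate and without either MPTP array), and Kcna7 lost its 6-array call in 8 of 19.

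Replicate numbers are shared between groups, but same-numbered arrays did not deviate together (correlations from -0.328 to 0.174 over the 6 pairs of groups). With the replicate number as a block, 10 members were called higher and 1 lower in MPTP minus control (Kcna4 was lost), and 13 and 2 over the 6 arrays. RMA values carry no signal over background, so what is dim cannot be given a detection limit.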
